A study of Mus musculus with 9 samples.

Results

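The genes described here are the 7 that make creatine, carry it into cells or charge it with phosphate: Gatm, Gamt, Slc6a8, Ckb, Ckm, Ckmt1 and Ckmt2. They were picked by symbol, and all 7 were among the 19938 genes measured, each through 1 probe set with that single symbol. The list was built around Gatm, which had stood out in these arrays for its rise in knockout against wild type. The other 6 were added for their function. Knockout against wild type is therefore given for these genes as a description, and calls in it are not taken as support.

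Cells lining the cerebral ventricles of newborn C57BL/Ka mice were profiled on Affymetrix Mouse Gene ST 1.0 arrays. The labels give neither pooling nor the number of pups per array. The 3 groups were Prdm16+/+ (WT, 2 wild-type alleles), Prdm16LacZ/+ (HET, 1 wild-type allele) and Prdm16LacZ/LacZ (KO, 0 wild-type alleles), with 3 arrays each, all of uncultured and untreated cells. Prdm16 encodes a zinc finger regulator of transcription in stem cells and brown fat; the labels name no Cre or other driver for the LacZ allele. Nothing in the labels makes the 3 arrays of a genotype 3 different pups. A p-value here therefore sets a difference of means against the scatter of these arrays, which may not be the scatter between pups. The sex-linked genes given with the array levels differed between arrays of each genotype, so that those arrays did not all come from the same material.

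Creatine is made from arginine and glycine. The enzyme encoded by Gatm joins them into guanidinoacetate and releases ornithine, and the enzyme encoded by Gamt then methylates guanidinoacetate with S-adenosylmethionine. Slc6a8 encodes the carrier that brings creatine into cells, and creatine kinases move phosphate between ATP and creatine, as a buffer where energy demand changes fast. Inherited loss of Gatm, Gamt or Slc6a8 function lowers brain creatine in people and impairs mental development.

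Gatm was the 1 member whose 3 genotypes did not overlap, while the genotypes of Ckb, which encodes the brain kinase, overlapped. The stretches before their start sites are therefore shown. Each is 250 bases long and ends just before the RefSeq start, 5′ to 3′ on the strand of the gene (both minus), from RefSeq on build GRCm38.p6, Gatm at chr2:122611278-122611527 and Ckb at chr12:111672339-111672588. Capitals mark matches on either strand to CCAAT or TATAAA.
Gatm: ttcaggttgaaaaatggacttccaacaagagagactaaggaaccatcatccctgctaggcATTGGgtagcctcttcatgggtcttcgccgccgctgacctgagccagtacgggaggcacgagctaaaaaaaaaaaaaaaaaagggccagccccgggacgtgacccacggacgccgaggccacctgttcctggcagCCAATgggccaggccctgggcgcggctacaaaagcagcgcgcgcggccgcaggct
Ckb: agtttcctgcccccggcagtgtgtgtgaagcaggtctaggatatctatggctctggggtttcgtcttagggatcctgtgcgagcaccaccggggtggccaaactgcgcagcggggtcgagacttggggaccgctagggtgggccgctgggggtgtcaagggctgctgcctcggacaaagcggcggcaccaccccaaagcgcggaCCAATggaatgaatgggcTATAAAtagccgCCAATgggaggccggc
The Gatm stretch held 2 CCAAT matches and no TATAAA or GGGCGG, while the Ckb stretch held 2 CCAAT matches and 1 TATAAA. Of 32851 RefSeq stretches of the same length, 33.8% held CCAAT, 12.4% TATAAA and 32.7% GGGCGG. Entries were found for 6 of the 7 members, all but Slc6a8. The Gamt stretch held 3 GGGCGG matches. The arrays measured no binding or chromatin at these stretches, and a match is only a description of the letters.

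All array values are log2 values, as deposited. The median of an array ranged from 5.80 to 5.92, and its lower quartile from 4.53 to 4.68. Prdm16 itself lay at 7.62, 7.57 and 7.23 in WT, 6.995, 7.34 and 6.998 in HET and 5.69, 6.41 and 6.17 in KO. Of 12 markers of radial glia and neural stem cells, the cells of this zone, 1 (Hopx) was below the lower quartile on all 9 arrays, while Fabp7 ranged from 11.7 to 12.4 and Slc1a3 from 10.2 to 10.5. Lying above the lower quartile does not by itself show expression, since 3 of 12 muscle markers were below it on all arrays and the others were not. WT replicate 1 held high Xist together with high Y-linked Kdm5d (10.0 and 8.32). KO replicate 2 held high Xist with an intermediate level of Kdm5d (10.5 and 7.03). Xist was high and Kdm5d low in HET replicate 1 (10.7 and 4.92) and KO replicate 3 (11.0 and 4.72), and in the other 5 arrays Xist was at most 4.99 and Kdm5d at least 8.73.

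The mean of Gatm, the first enzyme of creatine synthesis, was higher in HET than in WT and higher in KO than in HET. Neither step passed over all genes in the main fit, and each shares arrays with the comparison from which Gatm was picked. The WT values of Gatm were 6.51, 6.95 and 6.77, its HET values 7.34, 7.39 and 7.10, and its KO values 8.51, 7.94 and 7.99. The 3 genotypes did not overlap: the lowest HET array lay 0.15 above the highest WT array, and the lowest KO array 0.54 above the highest HET array. The means were 6.74 ± 0.22 in WT, 7.28 ± 0.16 in HET and 8.14 ± 0.32 in KO (SD, n = 3). KO lay 2.64-fold above WT (log2 change 1.40, SE 0.16), the value for which the gene was picked, and 4 of the other genes had a change at least as high. The highest of these, 2.25, was that of a sex-linked gene. In this comparison Gatm was called in the main fit and in 19 of 20 alternatives. It was not called with the WT and KO arrays alone in the fit. Since Gatm was picked from this comparison, its calls here are not taken as support. In whole tissue a higher level in each cell and more cells that hold the transcript cannot be told apart.

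**Figure D1:**
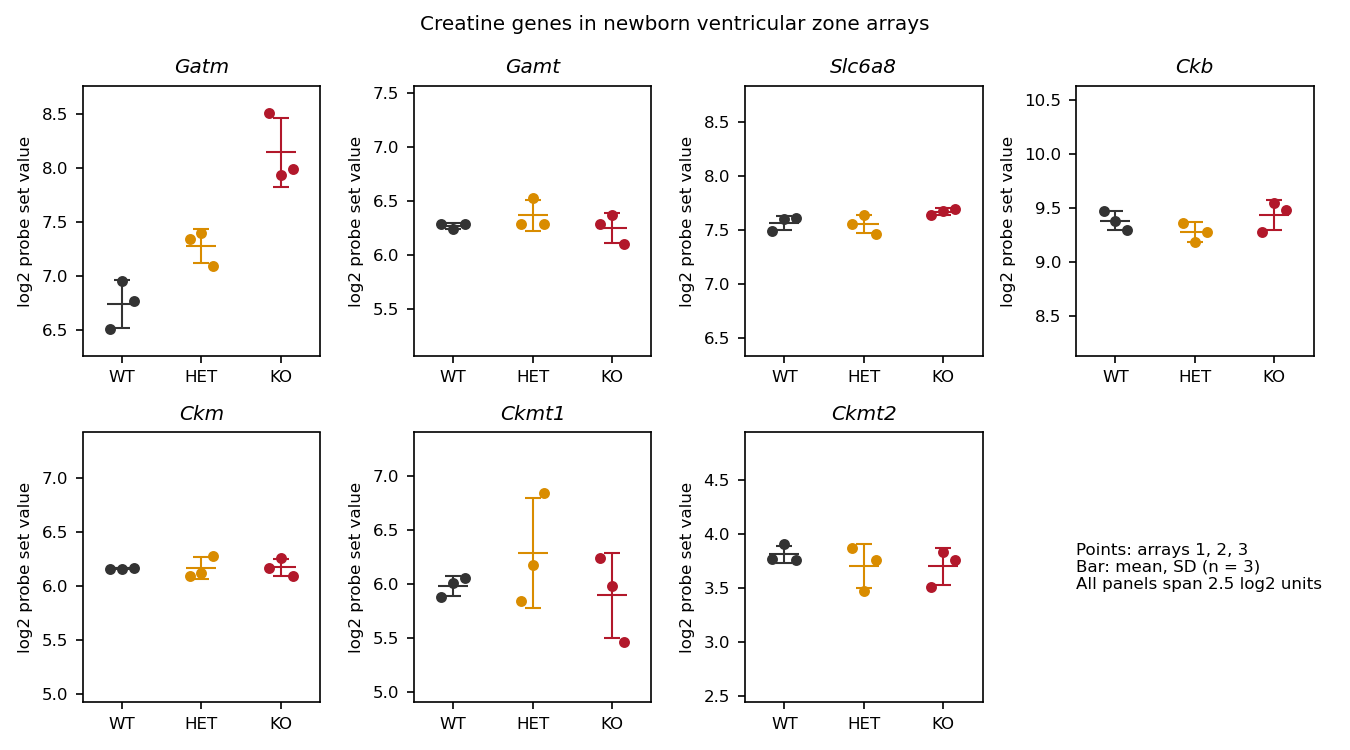
Log2 probe set values of the 7 creatine genes in each array, by genotype; points are arrays, bars the mean and SD of 3 arrays, and every panel spans the same log2 range. The Gatm means are 6.74 in WT, 7.28 in HET and 8.14 in KO, with no overlap of arrays, while no other gene separates all 3 genotypes.

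HET against WT asks whether losing 1 allele is enough to move Gatm. HET lay 1.45-fold above WT (log2 change 0.53, SE 0.16, 95% interval 0.17 to 0.90). This did not pass the test over all genes (adjusted p = 0.99 by limma and Benjamini-Hochberg), although its unadjusted p of 0.0080 was the 75th smallest of 19938. Every HET array lay above every WT array; the arrays of these genotypes were apart, in either direction, for 6.85% of all genes. No gene passed in this comparison (0% of 19938), and 4.05% had an unadjusted p under 0.05. The comparison shares the WT arrays with the one from which Gatm was picked.

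KO against HET asks what the loss of the remaining allele adds. KO lay 1.82-fold above HET for Gatm (log2 change 0.87, SE 0.16, 95% interval 0.51 to 1.23, limma adjusted p = 0.11). It thus missed the threshold, which 0.206% of all genes passed, and 0.0451% of all genes as higher in KO. A change at least as high was found for 12 other genes, of which the highest, at 1.85, was sex-linked. The KO and HET arrays of Gatm did not overlap, and neither did those of 6.54% of all genes. The call was made under quantile normalization (adjusted p = 0.049) and with Xist as a covariate (0.049), and its adjusted p lay between 0.049 and 0.34 over all alternatives. The comparison shares the KO arrays with the one from which Gatm was picked.

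The place of HET between the other genotypes is independent of the change from WT to KO where the genotypes vary alike. HET held 38.1% of the Gatm change on the log2 scale, a share that divides by the change for which Gatm was picked. It lay 0.17 below the midpoint of WT and KO on that scale (SE 0.14, 95% interval -0.48 to 0.15, limma adjusted p = 0.93). The difference was -0.075 without KO replicate 1, -0.076 without HET replicate 3 and -0.23 without HET replicate 2, and -0.27 with array weights, and the share moves with it. The interval holds an exact midpoint, and also a HET level well below it. No gene departed from the midpoint over all genes (0% of 19938 by limma), with 4.77% at an unadjusted p under 0.05, none of them a member.

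Gamt, which completes creatine synthesis, did not follow Gatm. It lay at 6.29, 6.24 and 6.29 in WT, 6.29, 6.53 and 6.29 in HET and 6.29, 6.38 and 6.11 in KO. The genotypes overlapped, with means of 6.27 ± 0.027, 6.37 ± 0.14 and 6.26 ± 0.14 (SD, n = 3). The log2 change was 0.10 in HET against WT (SE 0.096) and -0.11 in KO against HET (SE 0.096; limma adjusted p = 0.99 and 0.89). Without HET replicate 2, the highest array, these were 0.016 and -0.032, and the second was -0.038 without KO replicate 3. In 5 of the 9 arrays, drawn from all 3 genotypes, the deposited Gamt value was identical to the last digit. Such a repeat in 5 or more arrays occurred in 7.7% of genes, and in at least 2 arrays in 62.9%. Whether the Gamt value reflects transcript or background was not tested.

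Slc6a8, the creatine carrier, is X-linked and was nearly level. It lay at 7.49, 7.60 and 7.61 in WT, 7.56, 7.64 and 7.46 in HET and 7.63, 7.68 and 7.69 in KO. The KO arrays lay just above every WT array, by less than the WT arrays spanned among themselves, and overlapped the HET arrays. KO and WT arrays were apart in either direction for 9.98% of all genes. The log2 change was -0.01 in HET against WT (SE 0.076, 95% interval -0.18 to 0.16) and 0.12 in KO against HET (SE 0.076, 95% interval -0.053 to 0.28), with limma adjusted p = 1.00 and 0.86. With Xist as a covariate the change in KO against HET was 0.12 (SE 0.084). The 4 arrays with high Xist held Slc6a8 values of 7.49, 7.56, 7.68 and 7.69, and the other 5 ranged from 7.46 to 7.64, so that they overlapped.

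Ckb encodes the cytosolic creatine kinase of brain. It lay at 9.47, 9.37 and 9.29 in WT, 9.36, 9.18 and 9.27 in HET and 9.27, 9.54 and 9.48 in KO. All 3 genotypes overlapped, with means of 9.38 ± 0.087, 9.27 ± 0.092 and 9.43 ± 0.14 (SD, n = 3). The log2 change was -0.11 in HET against WT (SE 0.094) and 0.16 in KO against HET (SE 0.094), with limma adjusted p = 0.99 and 0.84. The highest Ckb value came from KO replicate 2, the array with the highest lower quartile (4.68), and the lowest from HET replicate 2, with the lowest lower quartile (4.53).

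Ckm encodes the cytosolic kinase of muscle. Its probe set lay between 6.09 and 6.28 over all 9 arrays, with genotype means of 6.16, 6.16 and 6.17 that differed by less than the HET SD of 0.10. Of 12 markers of skeletal and heart muscle, 0 passed in KO against WT by limma and 0 had an unadjusted p under 0.05, while 3 (Myh1, Myh3 and Myl1) were below the lower quartile on all 9 arrays. The summed level of the 12 markers lay between 8.96 and 9.01 in WT, 8.90 and 9.02 in HET and 8.84 and 9.003 in KO. Whether the Ckm value reflects transcript or background was not tested.

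Ckmt1 encodes the mitochondrial kinase found in brain and many other tissues, and of the 7 members it had the largest SD in HET and in KO, though not in WT. It lay at 5.88, 6.01 and 6.06 in WT, 5.84, 6.18 and 6.84 in HET and 6.24, 5.98 and 5.47 in KO. Its SD in WT was 0.094, that in HET 0.51 and that in KO 0.40, against a median over all genes of 0.077, 0.12 and 0.13, so that HET replicate 3 and KO replicate 3 stood at opposite ends. The log2 change was 0.31 in HET against WT (SE 0.24, 95% interval -0.23 to 0.84) and -0.39 in KO against HET (SE 0.24, 95% interval -0.93 to 0.15), with limma adjusted p = 0.99 and 0.86. The SE was the largest of the 7 members. Without HET replicate 3 the change was 0.03 in HET against WT and -0.12 in KO against HET.

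Ckmt2 encodes the mitochondrial kinase of heart and skeletal muscle. Its values, between 3.48 and 3.91, were below the lower quartile on all 9 arrays, where a transcript may not be told from background. The log2 change was -0.11 in HET against WT (SE 0.12) and 0.00 in KO against HET (SE 0.12), and the genotypes overlapped.

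Over the 7 members, 1 passed in KO against WT (0.451% of all genes did, and 0.166% as higher in KO), which is Gatm and was fixed by the choice of list. By limma 0 passed in HET against WT and 0 in KO against HET, and Gatm alone had an unadjusted p under 0.05 in each. The median log2 change of the 7 was 0.01 in KO against WT, 0.00 in HET against WT and 0.01 in KO against HET, beside 0.01, 0.00 and 0.00 over all genes. The other 6 lay between -0.11 and 0.10 in KO against WT. Of these 6, 0 had an unadjusted p under 0.05 by limma in HET against WT or KO against HET, with smallest values of 0.23 (Ckmt1) and 0.12 (Ckb).

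**Figure D2:**
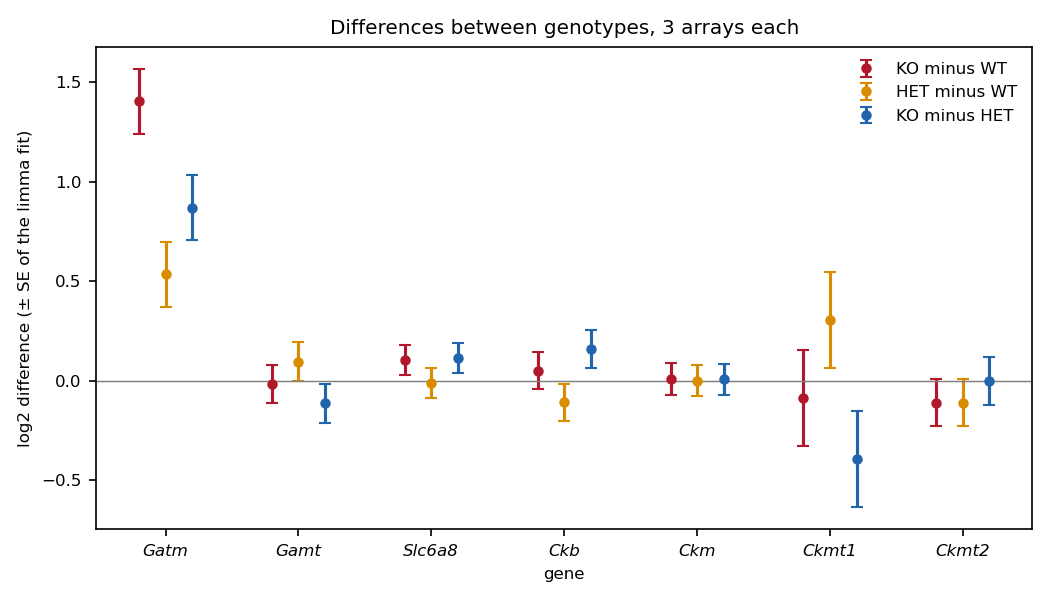
Log2 differences between genotypes for the 7 creatine genes, each with the SE of the limma fit (3 arrays per genotype). Gatm lies at 1.40, 0.53 and 0.87, and the other genes lie within 0.40 of 0, with the widest bars for Ckmt1 (SE 0.24).

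The genes that supply or use the substrates of creatine were followed in 7 lists of textbook genes, of which 73 of 80 genes were measured. By limma 0 of the 73 passed in KO against WT, HET against WT or KO against HET. An unadjusted p under 0.05 was found for 13.7%, 2.74% and 11.0% of them, beside 6.15%, 4.05% and 6.16% of all genes. In KO against HET, 48 of the 73 lay lower, with a median log2 change of -0.07, beside 9756 of all 19938 genes and a median of 0.00. In HET against WT, 43 of the 73 lay higher (median 0.02), and in KO against WT 42 lay lower (median -0.01).

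Arginine, the substrate of Gatm, and ornithine, its by-product, were covered by 16 measured genes, with 0 calls by limma and 4 at an unadjusted p under 0.05 in KO against HET. Slc7a2, a carrier of arginine and other cationic amino acids, had the smallest p of the list. It lay at 7.04, 7.02 and 7.13 in WT, 7.09, 7.49 and 6.72 in HET and 6.37, 6.36 and 6.41 in KO, so that all KO arrays lay below all others. KO arrays were apart from WT in 9.98% of all genes and from HET in 6.54%, in either direction. Slc7a2 was named for its small p in KO against HET, which favours such a gap. Its log2 change in KO against HET was -0.72 (SE 0.16, limma adjusted p = 0.19). Oat, which breaks down ornithine in mitochondria, lay at -0.43 (SE 0.16, adjusted p = 0.69).

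The other substrate, glycine, was covered by 11 genes, with 0 calls by limma and 2 at an unadjusted p under 0.05 in KO against HET. Slc6a9, the glycine carrier of glia, lay at 7.05, 7.25 and 6.83 in WT, 7.48, 7.16 and 7.27 in HET and 7.51, 7.73 and 7.51 in KO. The KO arrays lay above all others, while HET and WT overlapped. Like Slc7a2, this gene was named for its p, and KO arrays were apart from WT in 9.98% of all genes and from HET in 6.54%. The log2 change in KO against HET was 0.28 (SE 0.12, limma adjusted p = 0.80). Psph, of the serine pathway that feeds glycine, lay at -0.22 (SE 0.088, adjusted p = 0.75).

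Methyl donor genes, which supply the Gamt step, numbered 12 measured of 14, with 0 calls by limma and 0 at an unadjusted p under 0.05 in KO against HET. Bhmt2 and Nnmt had the smallest p of the list, with log2 changes of 0.11 and 0.15. Mat2a, which makes S-adenosylmethionine, and Ahcy, which breaks down what is left after methylation, were not analysed here.

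Among 8 carriers related to Slc6a8 or to creatine export, 0 passed by limma and 1 had an unadjusted p under 0.05 in KO against HET. This was Slc6a6, the taurine carrier, at 8.45, 8.60 and 8.50 in WT, 8.65, 8.71 and 8.59 in HET and 8.79, 8.89 and 8.93 in KO. Its KO arrays lay above all others and its HET and WT arrays overlapped, with a log2 change in KO against HET of 0.22 (SE 0.077, limma adjusted p = 0.67). Slc6a6 too was named for its p, and KO arrays were apart from WT in 9.98% of all genes and from HET in 6.54%. Slc16a9 lay at -0.14 (SE 0.072), and Slc16a12, a creatine carrier of other tissues, was below the lower quartile on all 9 arrays.

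Adenylate and nucleoside diphosphate kinases, which also relay phosphate, were listed with Prkaa1 and Prkaa2, the catalytic subunits of the AMP-sensing kinase. The list had 12 measured genes, 0 calls by limma and 1 unadjusted p under 0.05 in KO against HET. Ak4 lay at 0.25 (SE 0.099) and Nme2 at -0.26 (SE 0.14). In HET against WT, 2 genes had an unadjusted p under 0.05 by limma, Ak7 at -0.46 (SE 0.12) and Nme2 at 0.38 (SE 0.14). Ak7 lay at -0.53 in KO against WT and is also 1 of the ependymal and cilia markers. The 7 partners of mitochondrial kinases, the anion channels of the outer membrane and the inner membrane carriers of nucleotides and phosphate, had 0 calls by limma and 0 unadjusted p under 0.05 in KO against HET, with Slc25a3 at -0.13 (SE 0.11) and Vdac3 at -0.20 (SE 0.16).

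Creatine also takes part in heat production in fat, where PRDM16 is known to act. Of 7 genes of that list, 0 passed by limma and 0 had an unadjusted p under 0.05 in KO against HET. Ppargc1a, a coactivator of mitochondrial genes, lay at -0.32 (SE 0.15) and Phospho1 at -0.10 (SE 0.089). Alpl, the phosphatase that splits phosphocreatine in fat cells, had means of 6.53, 6.56 and 6.52 in WT, HET and KO.

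**Figure D3:**
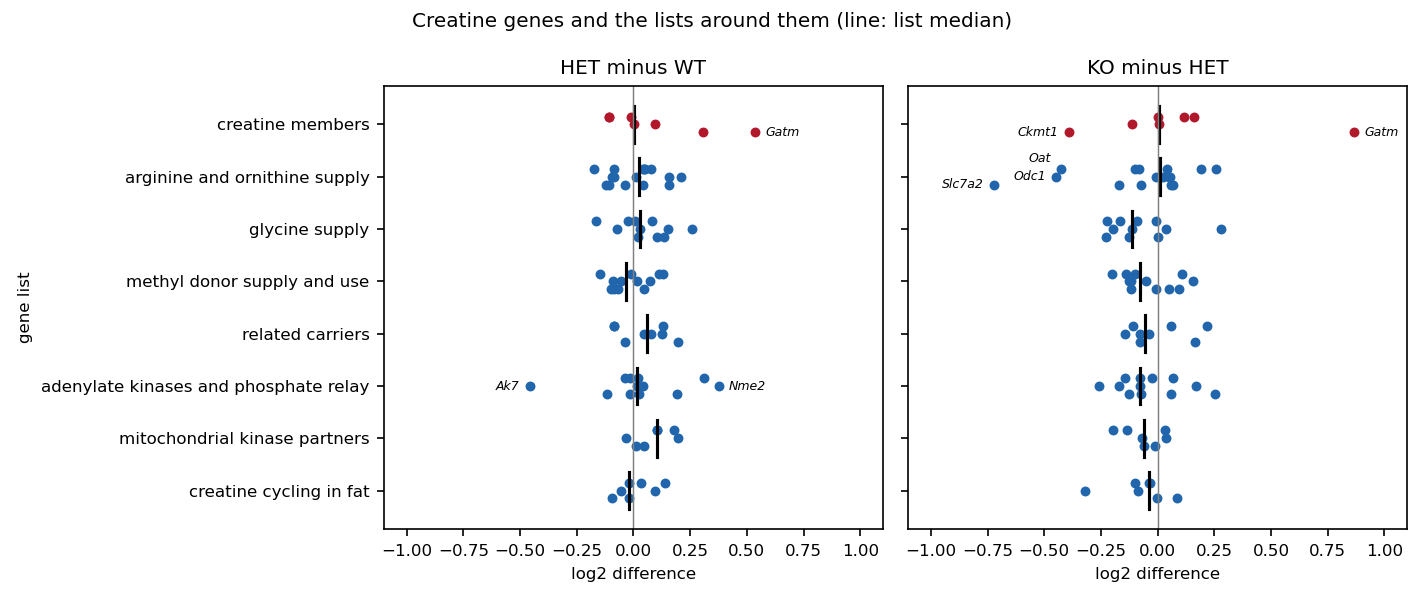
Log2 differences of the 7 creatine genes (red) and of 73 genes in 7 lists around creatine (blue), HET minus WT on the left and KO minus HET on the right; the x axis is the log2 difference, each point is a gene and each line a list median, and genes beyond 0.35 are named. Gatm is the highest point in both panels (0.53 and 0.87) and Slc7a2 the lowest on the right (-0.72).

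The genes whose values ran most like Gatm over the 9 arrays were Ddhd1 (Pearson r = 0.96), Npy (0.96), Has2 (0.95), AW551984 (0.95) and Hs2st1 (0.94). These r describe 9 arrays that fall into genotypes, and Gatm itself was picked for its genotype pattern. Npy, a neuropeptide, lay at 7.51, 7.69 and 7.65 in WT, 8.22, 7.85 and 8.13 in HET and 9.40, 8.51 and 8.76 in KO. As with Gatm, KO replicate 1 was the highest array and WT replicate 1 the lowest. Has2, which makes hyaluronan, lay at 5.42, 5.42 and 5.46 in WT, 5.80, 5.75 and 5.64 in HET and 6.71, 6.38 and 6.75 in KO. The genotypes did not overlap for Npy, Has2, Ddhd1 (a phospholipase) or Hs2st1 (a heparan sulfate sulfotransferase), while for AW551984 WT replicate 2 lay above HET replicate 2. Genes picked for likeness to Gatm would largely share its separation, so this is no separate result. Over all genes the arrays were apart for 9.98% between KO and WT, 6.85% between HET and WT and 6.54% between KO and HET.

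**Figure D4:**
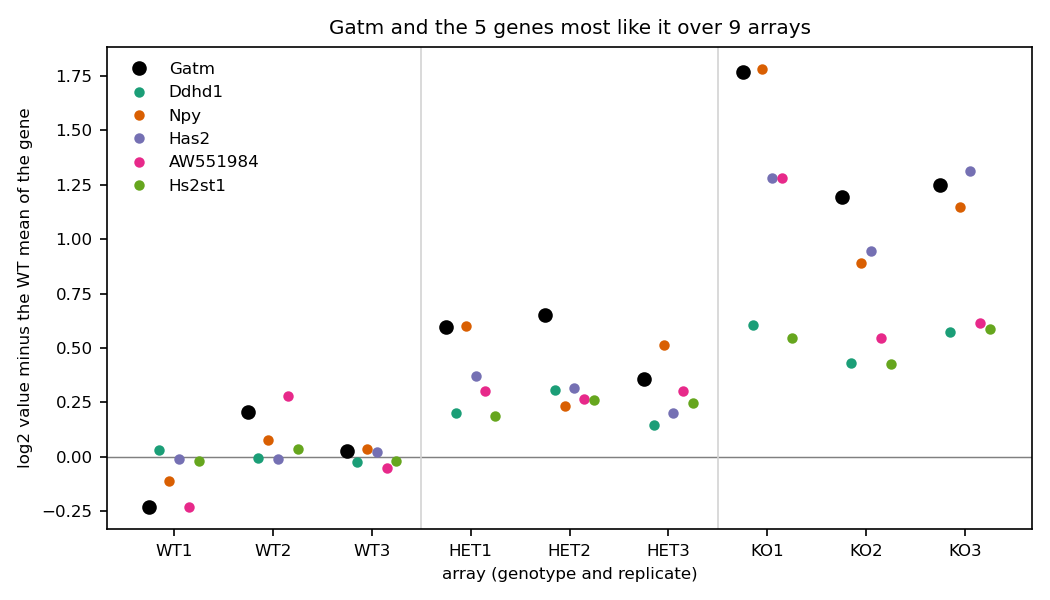
Log2 values of Gatm and the 5 genes most like it, each minus its own WT mean, in the 9 arrays; each point is 1 gene in 1 array, and vertical lines part the genotypes. Gatm (black) and Npy reach the highest values in KO replicate 1, and the KO arrays lie above the HET arrays of each gene.

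The genes most like Ckb were Mab21l4, Serpina12, Olfr1282, Igsf23 and Deptor, with Pearson r between 0.92 and 0.96 over the 9 arrays. They shared with Ckb the highest value in KO replicate 2 and the lowest in HET replicate 2. Serpina12 ranged from 4.12 to 4.47, under the smallest lower quartile of any array. Olfr1282 (4.38 to 5.15), Igsf23 (4.51 to 4.78) and Deptor (4.53 to 4.97) lay around the lower quartiles of the arrays, 4.53 to 4.68. KO replicate 2 and HET replicate 2 had the highest and the lowest lower quartile of the 9 arrays. The part of this in the likeness was not tested.

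The genes next to Gatm on its chromosome lay near 0 in KO against WT. In RefSeq order the 3 nearest measured genes on one side were Shf, Slc28a2 and Slc28a2b, and on the other Spata5l1, AA467197 and Slc30a4. Their log2 changes in KO against WT lay at 0.05, 0.06, -0.08, -0.07, -0.02 and 0.02, beside 1.40 for Gatm, and the KO and WT arrays of all 6 overlapped. Slc28a2, Slc28a2b and AA467197 were below the lower quartile on all 9 arrays. Slc30a4, a zinc carrier, lay at 8.77, 8.92 and 8.72 in WT, 8.81, 8.93 and 9.32 in HET and 9.03, 8.37 and 9.06 in KO.

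Markers of cell types that could hold creatine genes moved with the genotype in part. Of 9 astrocyte markers, 3 fell in KO against WT by limma (Apoe by 0.86, Aqp4 by 1.02 and Clu by 1.05 on the log2 scale) and 7 lay lower. Over all genes 0.451% passed in this comparison. Of the 19938 genes, 57 fell and 9440 lay lower. Aldh1l1 and S100b lay higher, by 0.21 and 0.06, so that the markers did not all move alike. The summed level of the 9 astrocyte markers lay between 11.4 and 11.6 in WT, 11.3 and 11.8 in HET and 10.8 and 10.9 in KO. That sum was thus lower in KO than in both other genotypes, while HET and WT overlapped, unlike Gatm. For single genes the arrays were apart in 9.98% between KO and WT and in 6.54% between KO and HET. No such share was computed for sums. Of 10 ependymal and cilia markers, 0 passed by limma in KO against WT. All 10 lay lower and 8 had an unadjusted p under 0.05, as 6.15% of all genes did. Their sum lay between 9.73 and 9.82 in WT, 9.69 and 9.84 in HET and 8.97 and 9.49 in KO.

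The sums of most other cell types overlapped between KO and WT. For the oligodendrocyte lineage (9 markers, 0 calls by limma, 2 with an unadjusted p under 0.05) the sum lay between 8.99 and 9.14 in WT, 9.08 and 9.16 in HET and 9.004 and 9.10 in KO. For endothelial cells and pericytes (8 markers, 0 calls, 0 with an unadjusted p under 0.05) it lay between 9.66 and 9.76 in WT and 9.63 and 9.75 in KO. For meninges and fibroblasts (8 markers, of which Ogn fell) it was lower in KO, 8.38 to 8.64, than in WT, 8.71 to 8.90, with HET at 8.57 to 8.83. Only 1 of these 8 had an unadjusted p under 0.05 by limma, and their median log2 change was -0.09. On all 9 arrays 3 of them were below the lower quartile, and the part of Ogn in the sum was not tested. Postmitotic neurons (10 markers, 0 calls, 3 with an unadjusted p under 0.05), choroid plexus (8, of which F5 rose), microglia (8, 0 and 0) and red blood cells (4, 0 and 0) had sums that overlapped between KO and WT, while for red blood cells HET (7.40 to 7.63) lay below WT (7.68 to 7.80). For choroid plexus the sum was 9.20 in HET replicate 2, with Ttr at 8.16, and between 8.42 and 8.68 on the other arrays. HET replicate 2 was also the highest HET array for Gatm, and without it the Gatm change was 0.48 in HET against WT and 0.93 in KO against HET. The part of these cell types in the Gatm values was not tested.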

How the data were processed

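The values are log2 signals that the authors deposited, 28940 probe sets on each of 9 arrays with 0 missing. RMA, affy and limma are named, per the submitters' processing notes, without versions or order. Probe sets were named from GEO's platform annotation (21789 with 1 symbol, 1621 with several, 5530 not listed), with symbols checked through RefSeq GRCm38.p6 gene IDs (21698 matched). The brightest probe set was kept for each of 19938 genes. A mean per genotype was fitted to all 9 arrays by lmFit and eBayes (limma 3.58.1 under R 4.3.3, two-sided), with Benjamini-Hochberg adjustment over all genes and a threshold of 0.05. The script was tested on simulated data. The number of arrays limits the precision.

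The members and lists were chosen with earlier results of these data known. Named were all 7 members, any pathway gene called and, for each pathway list, the 2 ranked first by unadjusted p between KO and HET, the 5 genes most like Gatm and Ckb by Pearson r (clone and predicted genes passed over), and 3 measured neighbours of Gatm on each side. Marker sums are log2 of the summed unlogged values. Other genes named, such as single markers and Alpl, were chosen after their values were seen. Alternatives covered normalization, array weights, filters, probe set choice, covariates, a replicate block and leaving out arrays.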

Additional observations from a re-analysis of the deposited data

How the results depend on the processing

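Each member's 4 differences were recomputed under 20 alternatives (19 for the midpoint, and 1 fewer for Ckmt2, which the filter on dim genes removed). Of 28 differences, 19 were counted as kept. The rule was the same sign and call, except for members other than Gatm in KO against WT. There a move smaller than the spread between arrays was counted as kept, whatever the sign. Since Gatm was picked from KO against WT, its value there is only described: 1.22 to 1.51 with each array left out, and 1.40 when fitted on those 6 arrays alone, where 0 members were called. In KO against HET, quantile normalization (0.88) and the Xist covariate (0.95) each called Gatm, and thus 1 member. Changes near 0 switched sign. In KO against WT, Gamt ranged from -0.076 to 0.059 and Ckb from -0.025 to 0.13 over all alternatives. Ckm ranged from -0.033 to 0.048 and Ckmt1 from -0.26 to 0.13. These 4 moved by less than the spread between arrays and are among the 19. For Slc6a8 in HET against WT the value was 0.0024 with median centring and between -0.0538 and 0.0330 with each array left out. For Ckm it lay between -0.0571 and 0.0356 in HET against WT, -0.0344 and 0.0659 in KO against HET and -0.0615 and 0.0311 against the midpoint with each array left out. Array weights gave Ckm -0.0282 and 0.0268 in the latter pair, median centring 0.0031 against the midpoint, and leaving out HET replicate 1 and KO replicate 2, added after seeing the data, -0.0689 and 0.0522. For Ckmt2 the ranges were -0.19 to 0.0037, -0.11 to 0.0957 and -0.14 to 0.0586, and KO against HET gave 0.00092 with median centring and 0.0175 when that pair of arrays was left out. The cause was not tested. The replicate number as a block, a number the arrays only share (deviations of same-numbered arrays correlated between -0.34 and 0.07 over 9 pairs), left Gatm at 1.40 in KO against WT and changed no call of a member; calls over all genes went from 90 to 72 in KO against WT and from 41 to 19 in KO against HET. Over all alternatives these counts lay between 23 and 151 and between 8 and 75, and against the midpoint between 0 and 3. Values below the lower quartile, as for Ckmt2, bound no change.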
